A study of Mus musculus with 32 samples.

Results

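The genes examined here encode the proteins of the mitochondrial ribosome (mitoribosome), taken as every array symbol that starts with Mrpl or Mrps followed by a digit. Features naming exactly 1 symbol were kept and the feature with the highest mean stood for its symbol, which gave 71 genes of 22180 measured in mouse kidney, 43 with an Mrpl symbol and 28 with an Mrps symbol. A further 7 symbols (Mrpl30, Mrpl33, Mrpl41, Mrpl43, Mrpl44, Mrpl53 and Mrps6) appeared only on features that also name another gene and were not counted. RNA came from kidney tissue of 32 male mice of strain 129, in 4 groups of 8. Mice of genotype Col4a3-/- (KO) lack the collagen IV chain whose loss causes Alport syndrome and were sampled at 4 or 7 weeks of age. Mice of genotype Col4a3+/+ (WT) were sampled at the same ages. The labels give no other allele, no treatment and no cell-restricted driver for any group, and a single strain and sex were studied. Each mouse was hybridised to its own Mouse Gene 2.0 ST array, and 8 mice a group is what sets the precision of every comparison.

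Mitoribosomes sit inside mitochondria and translate the few mRNAs of mitochondrial DNA (mtDNA), all of which encode subunits of the respiratory chain and ATP synthase. Their rRNAs come from mtDNA, whereas every protein is encoded in the nucleus, made in the cytosol and imported. Some of these proteins have a bacterial counterpart, and others are found only in mitochondria. The large subunit (Mrpl proteins) holds the peptidyl transferase centre and the exit tunnel, and the small subunit (Mrps proteins) reads the mRNA. Names do not always follow the particle: Mrps30 and Mrps18a encode large-subunit proteins and are counted there, which made 45 large-subunit and 25 small-subunit genes. Mrps36 was put in neither class, because its product is now known as an adaptor of the 2-oxoglutarate dehydrogenase complex. In kidney, the proximal tubule and the thick ascending limb are among the segments rich in mitochondria, and they run on oxidative phosphorylation.

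Transcription factors known for nuclear genes of mitochondria include nuclear respiratory factor 1 (NRF1), the ETS-family factor GABPA and YY1. RefSeq promoter windows of build GRCm38.p6, 300 bases long with 250 before the gene's start and 50 after, were on hand for 62 of the 71 genes. They were searched on both strands for the NRF1 motif, for CCGGAAG (ETS), for the YY1 motif and, for the TATA box, TATAAA. The NRF1 motif leaves its sixth base free and is matched by GCGCATGCGC, GCGCAGGCGC and GCGCACGCGC. No match to a motif overlapped a match to another in the mitoribosomal windows. The NRF1 letters were present in 11 of the 62 genes (17.7%, against 7.17% of 17492 protein-coding genes). The ETS letters were present in 23 (37.1%, against 12.9%), the YY1 letters in 5 (8.06%, against 1.41%) and the TATA letters in 5 (8.06%, against 14.8%). A match is a description of these letters only. Mrps11 and Mrpl46 lie head to head on opposite strands, and their windows overlap by 141 bases. Printed next are 120 bases from 6 windows that hold NRF1 letters wholly before the start and whose genes were lower in KO at 7 weeks, and from Mrpl52, 1 of the 2 genes that were higher. They come from Mrpl12 (chr11:120484517-120484636, + strand), Mrpl45 (chr11:97315586-97315705, + strand), Mrpl9 (chr3:94443216-94443335, + strand), Mrpl39 (chr16:84735260-84735379, - strand), Mrps21 (chr3:95871515-95871634, - strand), Mrpl32 (chr13:14613038-14613157, - strand) and Mrpl52 (chr14:54426789-54426908, + strand). Each is written 5′ to 3′ along the gene's strand. Capitals mark the NRF1 letters, or in Mrpl52 the ETS letters, on either strand, so a match on the opposite strand reads as its reverse complement.
Mrpl12: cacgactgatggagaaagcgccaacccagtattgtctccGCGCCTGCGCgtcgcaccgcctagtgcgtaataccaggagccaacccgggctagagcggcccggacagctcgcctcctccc
Mrpl45: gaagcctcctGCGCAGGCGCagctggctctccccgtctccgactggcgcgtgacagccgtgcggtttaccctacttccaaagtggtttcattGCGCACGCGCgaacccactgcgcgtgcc
Mrpl9: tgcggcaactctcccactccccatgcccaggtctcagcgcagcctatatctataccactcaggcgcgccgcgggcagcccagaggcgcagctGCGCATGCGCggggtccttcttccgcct
Mrpl39: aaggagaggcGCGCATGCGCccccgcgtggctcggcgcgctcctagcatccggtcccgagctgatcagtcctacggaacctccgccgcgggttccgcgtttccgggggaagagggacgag
Mrps21: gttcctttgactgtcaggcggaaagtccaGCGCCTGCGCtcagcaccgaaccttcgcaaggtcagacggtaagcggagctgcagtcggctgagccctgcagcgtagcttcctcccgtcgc
Mrpl32: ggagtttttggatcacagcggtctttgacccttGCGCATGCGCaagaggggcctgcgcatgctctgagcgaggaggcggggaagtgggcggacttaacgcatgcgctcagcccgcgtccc
Mrpl52: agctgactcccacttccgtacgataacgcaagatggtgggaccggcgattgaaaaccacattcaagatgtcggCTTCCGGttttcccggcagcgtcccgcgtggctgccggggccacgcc
The NRF1 match is the same in Mrpl12 and Mrps21, where it lies on the opposite strand, and in Mrpl9, Mrpl39 and Mrpl32 it is the palindrome GCGCATGCGC, which matches on both strands. The printed stretch of Mrpl45 holds 2 copies.

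Col4a3 itself averaged 8.92 ± 0.10 in WT and 7.27 ± 0.34 in KO at 7 weeks (mean log2 value ± SD, n = 8), and its values in the groups did not overlap. Correlations between arrays of the same group ran from 0.965 to 0.995. Proximal tubule markers were high in every group, with means over the 18 genes from 11.37 to 12.60 per mouse, in keeping with the kidney label. Macrophage markers stood higher in all 14 of 14 genes in KO at 7 weeks, and these and the other cell type markers are set beside the mitoribosomal values further on. The array median was higher in KO than in WT by 0.11 at 7 weeks and by 0.02 at 4 weeks.

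At 7 weeks most mitoribosomal genes that passed the test were lower in KO kidney, and more genes did not pass than did. Of the 71, 31 were lower, 2 were higher and 38 did not pass at an adjusted p below 0.05 (limma, Benjamini-Hochberg over all genes), against 16.7% of all genes lower and 15.6% higher. The estimate was below 0 for 65 of the 71, against 61.5% of all genes. The median log2 difference was -0.20, beside -0.06 over all genes, so these are shifts of modest size. Groups did not overlap, with every KO mouse below every WT mouse, for 13 of the 71 (5.42% of all genes), and no mitoribosomal gene had every KO mouse above every WT mouse (7.62% of all genes). In tissue RNA, fewer cells that express a gene and less RNA per cell cannot be told apart. With each array centred on its own median, the median over all genes moved to -0.18, and 55 mitoribosomal genes were lower and 0 higher, beside 37.5% and 11.6% of all genes. Leaving out KO mouse 6 left 20 lower, and fitting only the 7-week mice gave 51, with no share of all genes set beside either count.

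**Figure D1:**
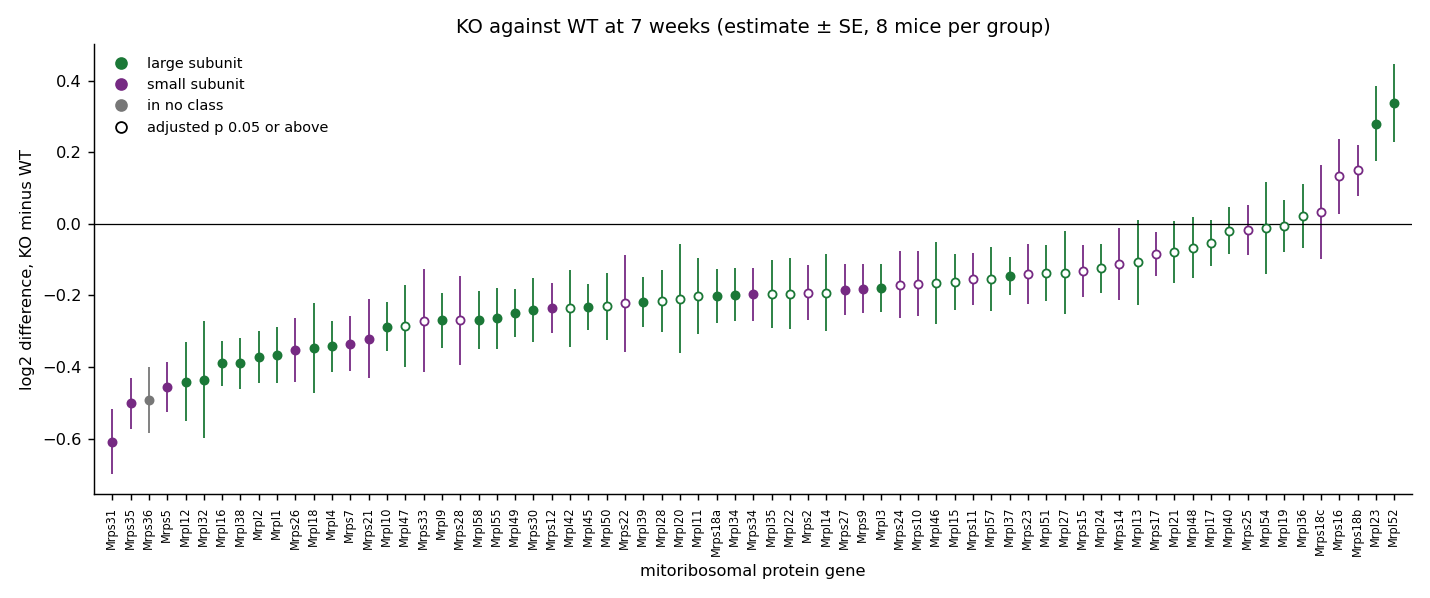
Log2 difference between KO and WT at 7 weeks (vertical axis, estimate ± SE, 8 mice per group) for each of the 71 mitoribosomal genes, sorted along the horizontal axis, with filled points for an adjusted p below 0.05. All but 6 points lie below 0, from Mrps31 at -0.61 on the left to Mrpl52 at 0.34 on the right, and large-subunit (green) and small-subunit (purple) genes are interleaved.

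The plot of the 71 differences shows the subunits mixed along the whole range. Among large-subunit genes 20 of 45 were lower and 2 higher, with a median of -0.20. Among small-subunit genes 10 of 25 were lower and 0 higher, with a median of -0.18. Proteins with a bacterial counterpart and proteins classed as mitochondrion-specific gave similar counts in the large subunit, 12 of 28 and 8 of 17 lower. The 17 and the 8 include Mrps18a, a relative of bacterial S18 that was classed with the mitochondrion-specific large-subunit proteins. In the small subunit these counts were 5 of 16 and 5 of 9. No difference between classes was tested.

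Small-subunit genes gave the smallest p-values. Mrps35 encodes a small-subunit protein without a bacterial counterpart. Its log2 values ran from 7.77 through a median of 7.88 to 7.98 in WT and from 7.19 through 7.37 to 7.58 in KO at 7 weeks. Every KO mouse was below every WT mouse. The difference was -0.50 (SE 0.07, adjusted p = 1.27e-06), or -29.4%. For Mrps31, another mitochondrion-specific protein, the lowest, median and highest values were 8.37, 8.48 and 8.67 in WT and 7.56, 7.90 and 8.18 in KO. Again the groups did not overlap, and the difference of -0.61 (SE 0.09, adjusted p = 2.07e-06) had the greatest size among the 71. Mrps5 is the counterpart of bacterial S5, a protein tied to decoding accuracy. It spanned 8.55, 8.82 and 8.88 in WT and 7.97, 8.38 and 8.58 in KO, and 7 of 8 KO mice were below all WT mice. Its difference was -0.46 (SE 0.07, adjusted p = 3.50e-06). Mrps7, a protein of the small subunit's head, was lower by a log2 difference of -0.34 (SE 0.08, adjusted p = 0.00082), with 7 of 8 KO mice below all WT mice. Also lower were Mrps26 (-0.35), Mrps21 (-0.32), Mrps12 (-0.24), Mrps34 (-0.20), Mrps27 (-0.18) and Mrps9 (-0.18).

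The large-subunit genes with the smallest p-values among those with a bacterial counterpart were Mrpl16, Mrpl2 and Mrpl4. Mrpl16, the counterpart of bacterial L16, had lowest, median and highest values of 10.26, 10.31 and 10.41 in WT and 9.79, 9.91 and 10.13 in KO at 7 weeks. The groups were fully apart, with a difference of -0.39 (SE 0.06, adjusted p = 7.79e-06). Mrpl2, whose counterpart L2 lies at the peptidyl transferase centre, spanned 7.50 to 7.77 (median 7.66) in WT and 6.93 to 7.50 (median 7.28) in KO. All 8 KO mice were below the lowest WT mouse, by a narrow margin at the edge, and the difference was -0.37 (SE 0.07, adjusted p = 0.000131). Mrpl4, whose counterpart lines the exit tunnel, had values of 9.89, 10.02 and 10.09 in WT and 9.44, 9.65 and 9.96 in KO, with 6 of 8 KO mice below all WT mice (difference -0.34, SE 0.07, adjusted p = 0.000283).

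Next by p-value in that class came Mrpl1, Mrpl10 and Mrpl12. Mrpl1 encodes the protein of the L1 stalk. It spanned 8.10, 8.16 and 8.23 in WT and 7.56, 7.85 and 8.06 in KO at 7 weeks, without overlap, and differed by -0.37 (SE 0.08, adjusted p = 0.000371). Mrpl12 and Mrpl10 encode the factor-binding stalk and its base, and Mrpl12 protein is also known to bind the mitochondrial RNA polymerase. Mrpl12 had values of 9.18, 9.32 and 9.46 in WT and 8.48, 8.91 and 9.17 in KO. Its groups did not overlap, and it differed by -0.44 (SE 0.11, adjusted p = 0.00208). Mrpl10 differed by -0.29 (SE 0.07, adjusted p = 0.00132), with 7 of 8 KO mice below all WT mice. Mrpl11, whose counterpart L11 sits at the base of the same stalk, had -0.20 (SE 0.11, adjusted p = 0.15) and did not pass.

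Mrpl38, a mitochondrion-specific protein of the central protuberance, had values of 9.69, 9.86 and 9.94 in WT and 9.27, 9.37 and 9.68 in KO at 7 weeks. The groups lay apart, just, and the difference was -0.39 (SE 0.07, adjusted p = 4.38e-05). Mrpl32, whose maturation by a mitochondrial protease is a step of ribosome assembly, differed by -0.44 (SE 0.16, adjusted p = 0.04) and was the most variable of the 71, with a pooled SD of 0.347. Mrpl37 had the least spread, with a pooled SD of 0.088, and its difference of -0.15 (SE 0.05) also passed (adjusted p = 0.0362). Mrpl45, a protein near the tunnel exit that ties the ribosome to the inner membrane, differed by -0.23 (SE 0.06, adjusted p = 0.00513), and Mrpl58, a peptidyl-tRNA hydrolase that rescues stalled ribosomes, by -0.27 (SE 0.08, adjusted p = 0.01). Mrps36, the gene in neither class, had values of 5.99, 6.10 and 6.29 in WT and 5.24, 5.73 and 5.91 in KO, without overlap, and a difference of -0.49 (SE 0.09, adjusted p = 6.44e-05).

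**Figure D2:**
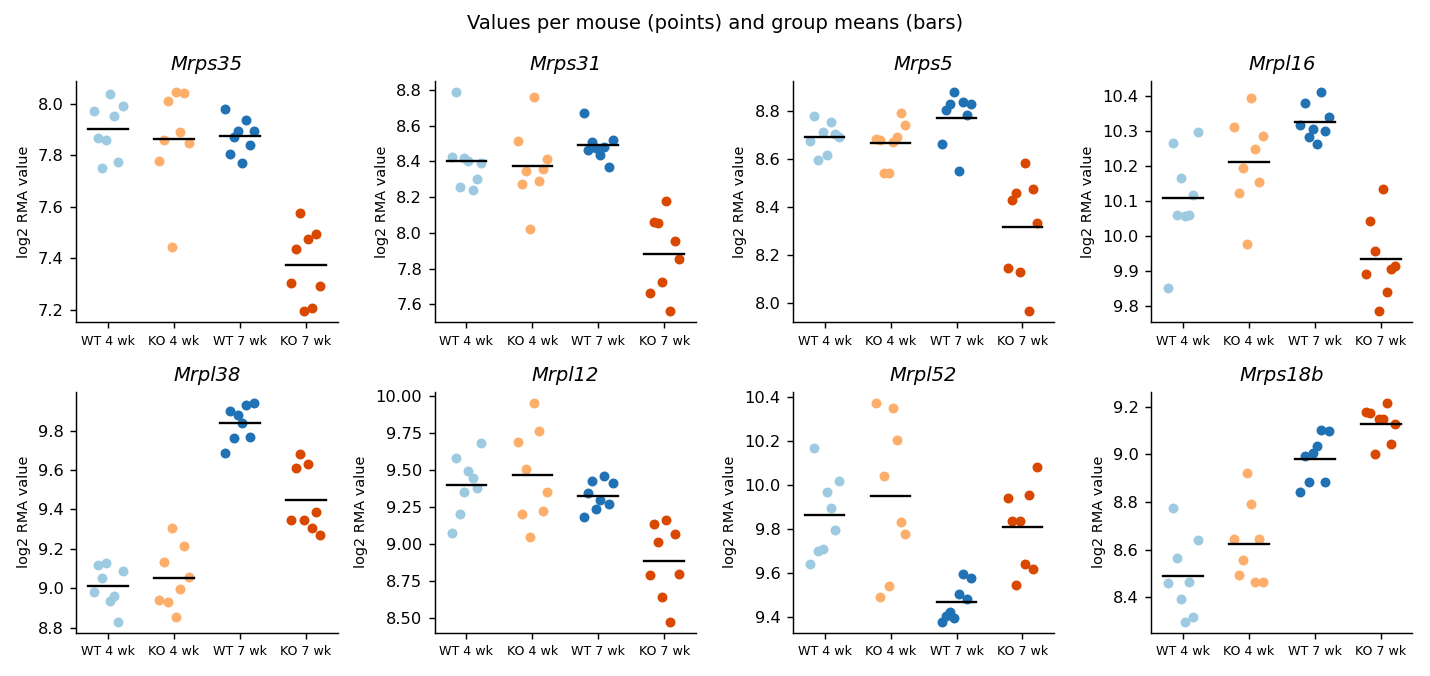
Log2 values of 8 mitoribosomal genes in each of the 32 mice (points, with bars at the group means; the vertical axis is the deposited log2 value and differs between panels). For Mrps35, Mrps31, Mrpl16, Mrpl38 and Mrpl12 the KO mice at 7 weeks lie below all WT mice at 7 weeks, whereas for Mrpl52 most lie above them, and Mrpl38 and Mrps18b stand higher at 7 than at 4 weeks in both genotypes.

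Mrpl52 and Mrpl23 were the 2 genes higher in KO at 7 weeks. Mrpl52, a mitochondrion-specific large-subunit protein, had values of 9.38, 9.45 and 9.59 in WT and 9.54, 9.84 and 10.08 in KO, and 7 of 8 KO mice were above all WT mice. The difference was 0.34 (SE 0.11, adjusted p = 0.0148), and with each array centred it was 0.22 and missed the threshold (adjusted p = 0.0799). Mrpl23, whose counterpart L23 lies at the tunnel exit, spanned 8.94 to 9.30 in WT and 9.15 to 9.57 in KO, with 6 of 8 KO mice above all WT mice. It differed by 0.28 (SE 0.10, adjusted p = 0.0386), by 0.17 with each array centred (adjusted p = 0.186), and kept its call in 6 of the 16 fits that left out a 7-week mouse. Of the 38 genes that did not pass, those with the greatest differences were Mrpl47 (-0.29, SE 0.11, adjusted p = 0.0525), Mrps33 (-0.27, SE 0.14, adjusted p = 0.158), Mrps28 (-0.27, SE 0.12, adjusted p = 0.0961) and Mrpl42 (-0.24, SE 0.11, adjusted p = 0.0916). Mrpl47 passed with centred arrays, with array weights, with the mean of its features, with trended variances, in the 7-week mice alone and after leaving out dim genes. Whether a promoter held the NRF1 letters can be set beside these calls. Of the 11 genes with the letters 8 were lower, and of the 51 without them 19 were lower, with medians of -0.23 and -0.20. For the ETS letters the counts were 9 of 23 and 18 of 39. These shares were not tested.

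At 4 weeks no mitoribosomal gene passed, in either direction, where 0.00902% of all genes were lower and 0.0316% higher (limma). Without adjustment 6 of the 71 had p below 0.05 (limma), a count with no share of all genes set beside it. The estimate was below 0 for 21 of the 71 and above it for 50, against 51.7% of all genes below 0. No mitoribosomal gene had its groups fully apart (0.0225% of all genes lower and 0.0271% higher). The median was 0.05, beside -0.01 over all genes. Among the greatest differences, Mrpl54, a mitochondrion-specific large-subunit protein, spanned 9.24 to 10.11 in WT and 9.15 to 10.33 in KO, with medians of 9.42 and 9.91. The groups overlapped for most mice, and the difference was 0.37 (SE 0.13, adjusted p = 0.38). Mrpl14 had 0.25 (SE 0.11, adjusted p = 0.482) and Mrpl34 0.24 (SE 0.07, adjusted p = 0.3). Mrps27, a mitochondrion-specific small-subunit protein, went the other way, with -0.24 (SE 0.07, adjusted p = 0.282) and 4 of 8 KO mice below all WT mice. The genes that led at 7 weeks were near 0 at 4 weeks: Mrps35 had -0.04, Mrps31 -0.03, Mrps5 -0.02, Mrpl38 0.04 and Mrpl16 0.10, each with an adjusted p of at least 0.642.

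The genotype difference at 7 weeks minus that at 4 weeks tested whether the gap widened. It passed below 0 for 18 of the 71 genes and above 0 for 0 (7.24% and 9.8% of all genes), with a median of -0.26 beside -0.04 over all genes. The estimate was below 0 for 66 of the 71 (56.9% of all genes). At an unadjusted p below 0.05 there were 38, a count with no share of all genes set beside it, and the tool was limma as before. The smallest p-values belonged to Mrpl16 (-0.49, SE 0.09, adjusted p = 0.000175), Mrps35 (-0.46, SE 0.10, adjusted p = 0.00145), Mrps31 (-0.58, SE 0.13, adjusted p = 0.00148), Mrps5 (-0.43, SE 0.10, adjusted p = 0.00205), Mrpl38 (-0.43, SE 0.10, adjusted p = 0.00236) and Mrpl4 (-0.44, SE 0.10, adjusted p = 0.00244). Mrpl1 (-0.33) and Mrpl12 (-0.51) were among the 18, and neither Mrpl52 (0.25, adjusted p = 0.296) nor Mrpl23 (0.21, adjusted p = 0.379) passed. Leaving out 1 mouse gave from 13 (without KO mouse 1 of 7 weeks) to 36 (without KO mouse 4 of 4 weeks, which was low in most of these genes). With each array centred, 38 passed below 0 and 0 above, beside 15.1% and 7.54% of all genes. The median over all genes then moved to -0.14.

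In WT mice the mitoribosomal genes moved both ways between 4 and 7 weeks. Of the 71, 19 were lower and 12 higher at 7 weeks, against 14.1% and 15.4% of all genes, and the median was -0.13 beside -0.01. The estimate was below 0 for 50 of the 71 (52.6% of all genes). Mrpl38 rose most. It spanned 8.83, 9.02 and 9.13 at 4 weeks and 9.69, 9.86 and 9.94 at 7 weeks, with all older mice above all younger ones and a difference of 0.83 (SE 0.07, adjusted p = 2.26e-09), or 77.3%. Mrps18b, Mrpl4 and Mrpl10 rose by 0.49 (adjusted p = 3.55e-06), 0.49 (adjusted p = 5.11e-06) and 0.48 (adjusted p = 4.01e-06), and Mrps2, the counterpart of bacterial S2, by 0.34 (adjusted p = 0.00107). The second feature of Mrpl10 differed by 0.04 in this comparison, and the mean of both features by 0.26 (adjusted p = 0.00178), whereas the second feature of Mrps18b differed by 0.70. Mrpl37 rose by 0.26 (adjusted p = 0.000364). For each of these 6 rising genes the groups did not overlap. They were picked for the smallest p, so the share of all genes with such groups (7.38%) is not a like background for them.

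Among the genes that fell with age in WT, Mrpl35 fell by 0.44 on the log2 scale (adjusted p = 0.000629), Mrpl42 by 0.48 (adjusted p = 0.00081), Mrpl50 by 0.41 (adjusted p = 0.00097) and Mrps24, the counterpart of bacterial S3, by 0.40 (adjusted p = 0.00134). Mrpl42 spanned 8.79, 9.12 and 9.41 at 4 weeks and 8.50, 8.67 and 8.73 at 7 weeks, so the older mice all lay below the younger ones. Mrps25 fell by 0.30 (adjusted p = 0.00157) and Mrps14 by 0.38 (adjusted p = 0.0036), and Mrps14 is the only 1 of these 6 whose ages overlapped. In all, 8 genes had every 7-week mouse below every 4-week mouse (4.48% of all genes). None of these 6 passed between genotypes at 7 weeks, a comparison that shares the WT 7-week mice, with differences from -0.24 (Mrpl42) to -0.02 (Mrps25) and adjusted p-values from 0.057 to 0.878 in limma.

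In KO mice most of the family fell between 4 and 7 weeks. Of the 71, 54 were lower and 3 higher, against 21.3% and 21.4% of all genes, with a median of -0.36 beside -0.06. The estimate was below 0 for 63 of the 71 (59.4% of all genes). Mrpl50 had the smallest p, with values of 10.26, 10.75 and 11.10 at 4 weeks and 9.84, 10.09 and 10.28 at 7 weeks. The groups met only at the edge, with 7 of 8 older mice below all younger ones, and it fell by 0.68 (SE 0.09, adjusted p = 4.34e-07). Mrpl1 fell by 0.56 (adjusted p = 6.13e-07), Mrps35 by 0.49 (adjusted p = 1.39e-06), Mrpl39 by 0.46 (adjusted p = 2.10e-06), Mrpl15 by 0.50 (adjusted p = 3.75e-06) and Mrps24 by 0.59 (adjusted p = 4.56e-06). The greatest fall was that of Mrps33, by 0.83 (SE 0.14, adjusted p = 1.74e-05), and Mrps33 and Mrpl32 had wide spreads at 4 weeks. Groups were fully apart for 5 falling genes (2.69% of all genes) and 1 rising gene (6.89%), Mrps18b. The 3 that rose were Mrps18b (0.51, adjusted p = 5.31e-07), Mrpl38 (0.39, adjusted p = 2.85e-05) and Mrpl10 (0.20, adjusted p = 0.0196). Mrpl10 was not past the threshold with centred arrays (0.12, adjusted p = 0.141), with the mean of its features (0.12, adjusted p = 0.132) or in the KO mice alone (adjusted p = 0.0668).

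**Figure D3:**
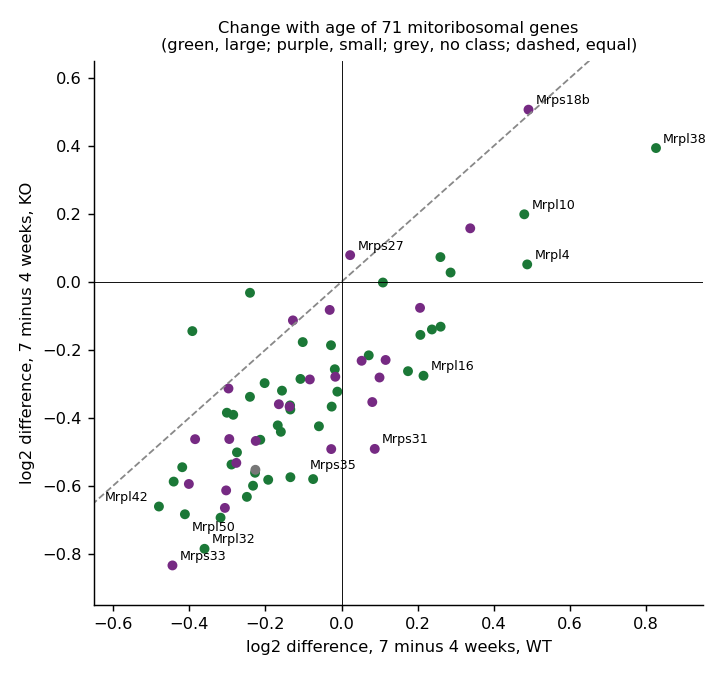
Log2 difference between 7 and 4 weeks in WT (horizontal axis) and in KO (vertical axis) for the 71 mitoribosomal genes, as points coloured by subunit, with the dashed line where both are equal. The points follow the line's slope and 66 of 71 lie below it, and Mrps18b lies close to it while Mrpl16 and Mrps31 are above 0 in WT and below 0 in KO.

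The age differences in WT and in KO share no mouse. Across the 71 genes they had a Pearson correlation of 0.82 and a Spearman correlation of 0.78, against a Pearson correlation of 0.46 over all genes, as a description, since genes of an array share its RNA and its normalisation. The KO value was below the WT value for 66 of the 71, as the plot of age differences shows. Of the 19 genes lower with age in WT, 18 (94.7%) were lower in KO too, which is 33.3% of the 54 in KO, and the exception was Mrpl52 (-0.14 in KO, adjusted p = 0.29). Of the 12 that were higher in WT, 3 (25%) were higher in KO, which is 100% of those higher in KO. In KO 54 of all 71 were lower, so a high share was likely for the first overlap. No share over all genes is set beside either overlap, and neither was tested. Mrpl16 was the 1 gene past the threshold in opposite directions, at 0.22 (adjusted p = 0.00854) in WT and -0.28 (adjusted p = 0.000538) in KO. Mrpl4 had 0.49 in WT and 0.05 (adjusted p = 0.592) in KO, and Mrpl2 had 0.26 (adjusted p = 0.00655) and -0.13 (adjusted p = 0.149). For all 3 the difference between genotypes in age change, which is the same quantity as the genotype difference at 7 minus 4 weeks, passed the test.

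The array measured 3 relatives of bacterial S18. Mrps18a, whose protein is in the large subunit, was lower in KO at 7 weeks (-0.20, SE 0.07, adjusted p = 0.0366) and rose with age in WT (0.21, adjusted p = 0.034). Mrps18b, a small-subunit protein, rose with age in both genotypes and had 0.15 between genotypes at 7 weeks (SE 0.07, adjusted p = 0.105), with 6 of 8 KO mice above all WT mice. Mrps18c, also a small-subunit protein, had 0.03 at 7 weeks (adjusted p = 0.875) and fell with age in KO by 0.46 (adjusted p = 0.00433), and in WT its value was -0.29 (adjusted p = 0.0902). Differences between the 3 genes were not tested.

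For 9 of the 71 genes a second feature named the same symbol. At 7 weeks the second feature of Mrpl12 differed by -0.81 where the one used differed by -0.44, that of Mrps5 by -0.41 against -0.46, that of Mrpl47 by -0.26 against -0.29 and that of Mrpl10 by -0.13 against -0.29. For Mrps17 the pair was -0.15 and -0.08, for Mrps18b 0.03 and 0.15, and for Mrps18c 0.10 and 0.03. The pair disagreed in sign for Mrps16, at -0.21 against 0.13, and for Mrpl36, at -0.12 against 0.02, so no direction is given for those genes. Among the features used, that of Mrpl34 had the highest mean log2 signal (10.51) and that of Mrpl27 the lowest (5.55), which says nothing of abundance between genes.

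Averaged over the family, the genotypes were apart at 7 weeks and not at 4 weeks. The mean over the 71 genes ran from 8.14 to 8.26 per mouse in WT and from 7.86 to 8.08 in KO at 7 weeks. At 4 weeks it ran from 8.12 to 8.42 in WT and from 8.00 to 8.58 in KO, with wide overlap. The median SD within a group was 0.098 in WT and 0.122 in KO at 7 weeks, and 0.153 and 0.215 at 4 weeks. Over all genes these medians were 0.159, 0.165, 0.196 and 0.208. At 4 weeks KO mouse 4 was below its group's mean in 62 of the 71 genes, and KO mice 5 and 6 were above it in 62. The arrays of mice 4 and 5 had the lowest weights of the 32 when limma weighted arrays by quality, 0.337 and 0.388. Without both arrays, the count for the difference of differences was 26, and at 4 weeks it stayed at 0 in either direction.

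**Figure D4:**
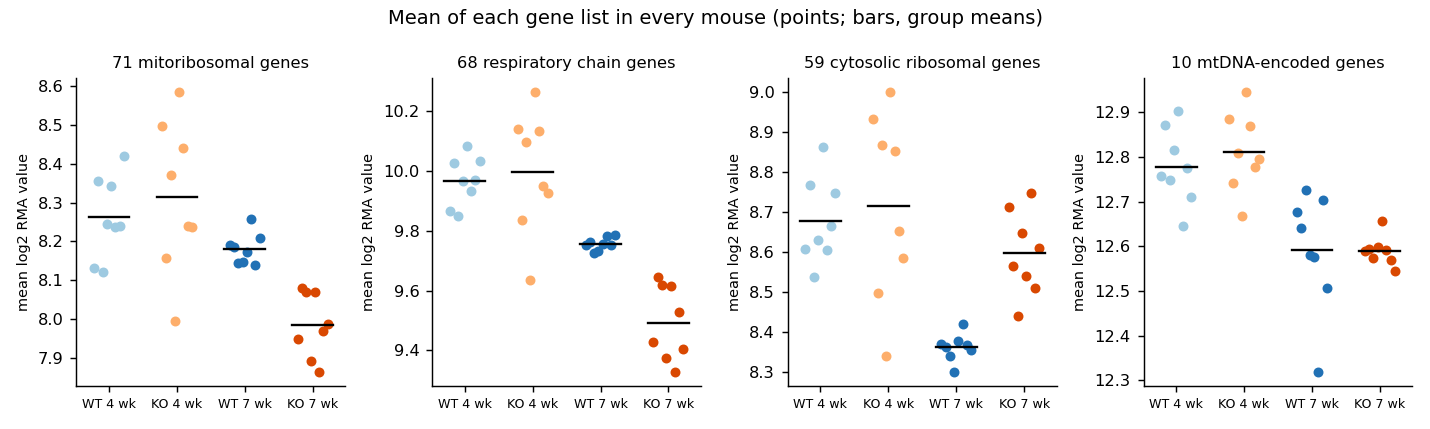
Mean log2 value of 4 gene lists in each of the 32 mice (points, with bars at the group means; each panel has its own vertical axis). At 7 weeks the KO mice lie below the WT mice for the 71 mitoribosomal and the 68 nuclear respiratory chain genes, above them for the 59 cytosolic ribosomal genes, and among them for the 10 mtDNA-encoded genes.

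Other genes of the mitochondrial translation system are set against the same background of 16.7% of all genes lower and 15.6% higher at 7 weeks. Of 3 further mitoribosome proteins with other names, Dap3 (-0.25, SE 0.05, adjusted p = 0.0002) and Gadd45gip1 (-0.21, SE 0.06, adjusted p = 0.00842) were lower in KO at 7 weeks and Ptcd3 had -0.09 (adjusted p = 0.776). Of 22 genes for mitoribosome assembly and rRNA modification 14 were lower and 0 higher, with a median of -0.21. They included Eral1, a GTPase that chaperones small-subunit rRNA (-0.35, adjusted p = 0.000178), the GTPase gene Noa1 (-0.34, adjusted p = 0.000205), the rRNA methyltransferase gene Tfb1m (-0.33, adjusted p = 0.000335) and Rbfa (-0.25, adjusted p = 0.000518). Fastkd2 (-0.24, adjusted p = 0.0873) and Mterf3 (-0.19, adjusted p = 0.104) did not pass.

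Of 15 translation factors and their aides 11 were lower at 7 weeks, with a median of -0.32. The elongation factor gene Gfm1 had -0.55 (adjusted p = 1.58e-05), the recycling factor gene Gfm2 -0.51 (adjusted p = 1.41e-05), the initiation factor gene Mtif3 -0.48 (adjusted p = 1.93e-05) and Taco1, an activator of cytochrome oxidase translation, -0.42 (adjusted p = 2.87e-05). Mtrf1 (-0.20, adjusted p = 0.143) and Mtif2 (-0.18, adjusted p = 0.113) did not pass. Of 19 genes that charge mitochondrial tRNAs 13 were lower, with a median of -0.22, led by the amidotransferase gene Gatb (-0.66, adjusted p = 1.54e-07) and the synthetase genes Nars2 (-0.36, adjusted p = 1.58e-05), Yars2 (-0.35, adjusted p = 6.87e-05) and Rars2 (-0.48, adjusted p = 0.000411). Iars2 had -0.19 (adjusted p = 0.0552) and Qrsl1 -0.17 (adjusted p = 0.0587). With age in WT the synthetase list went the other way from the mitoribosomal genes, 11 of 19 higher and 1 lower with a median of 0.25. With each array centred, the synthetase list had 11 higher and 0 lower (median 0.27), and the assembly list had 10 of 22 higher and 4 lower (median 0.16). The translation factors had 6 of 15 higher and 3 lower (median 0.12), and the 3 further mitoribosome proteins 0 in either direction (median 0.01). The mitoribosomal genes then had 13 higher and 14 lower (median -0.11). Without centring, the assembly list also moved both ways, with Eral1 at 0.50 (adjusted p = 2.43e-06, limma) and Gtpbp10 at -0.49 (adjusted p = 0.00243, limma). Dap3, Gadd45gip1 and Ptcd3 had -0.01, 0.09 and -0.49 without centring. A difference between the lists was not tested.

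Genes that copy, transcribe and process mtDNA gave 7 of 18 lower at 7 weeks, with a median of -0.22. The RNA-binding protein gene Grsf1 (-0.49, adjusted p = 8.22e-06), the helicase gene Supv3l1 (-0.36, adjusted p = 3.40e-05), the transcription factor gene Tfb2m (-0.37, adjusted p = 4.71e-05) and the mtDNA helicase gene Twnk (-0.31, adjusted p = 0.00139) were lower. Polrmt, the mitochondrial RNA polymerase, had -0.29 (adjusted p = 0.0805) and Mterf1a 0.26 (adjusted p = 0.179). Of 13 regulators of mitochondrial biogenesis 7 were lower and 2 higher. Lower were the coactivator gene Ppargc1a (-0.42, adjusted p = 1.70e-05) and the estrogen-related receptor genes Esrra (-0.41, adjusted p = 5.96e-05) and Esrrg (-0.37, adjusted p = 0.000171), and Myc was higher (1.58, adjusted p = 1.71e-09). Nrf1 had 0.10 (adjusted p = 0.185) and Hcfc1 0.13 (adjusted p = 0.582), so neither passed. Gabpa had -0.16 (adjusted p = 0.0207).

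The mRNAs that mitoribosomes translate are encoded in mtDNA. Of these 10 were measured, and none passed at 7 weeks, with 0 of 10 at an unadjusted p below 0.05 (limma) and a median of 0.00. Their mean per mouse ran from 12.32 to 12.73 in WT and from 12.54 to 12.66 in KO. ND3 had -0.08 (SE 0.05, adjusted p = 0.299) and ND6 0.07 (SE 0.20, adjusted p = 0.811). With each array centred 2 of the 10 were lower and the median was -0.11. Of 68 nuclear genes for respiratory chain and ATP synthase subunits 42 were lower and 0 higher, with a median of -0.27. Ndufs1 of complex I had -0.62 (adjusted p = 1.31e-06), Sdhc of complex II -0.46 (adjusted p = 1.54e-06), Uqcrfs1 of complex III -0.54 (adjusted p = 6.26e-06) and Ndufa10 -0.37 (adjusted p = 3.05e-05), and Ndufa1 (-0.37, adjusted p = 0.103) and Uqcr11 (-0.30, adjusted p = 0.0769) did not pass. The difference between nuclear and mtDNA-encoded lists was not tested.

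Cytosolic ribosomes translate the mRNAs of nuclear genes. Of 59 of their protein genes measured, 32 were higher and 0 lower in KO at 7 weeks, with a median of 0.23, and with each array centred 18 were higher and 2 lower with a median of 0.11. Rps4x had 0.56 (adjusted p = 2.71e-06), Rplp0 0.52 (adjusted p = 1.39e-05), Rps28 0.46 (adjusted p = 6.75e-05) and Rps6 0.23 (adjusted p = 0.000119), whereas Rpl9 (0.28, adjusted p = 0.125) and Rps16 (-0.21, adjusted p = 0.0959) did not pass. Their mean per mouse ran from 8.30 to 8.42 in WT and from 8.44 to 8.75 in KO at 7 weeks, apart in the direction opposite to the mitoribosomal genes. With age in WT 38 of the 59 fell and 0 rose, beside 12 fallen and 1 risen in KO, where 14.1% and 21.3% of all genes fell. The size of this contrast depended on centring: with each array centred 35 fell in WT and 28 in KO (12.2% and 32.6% of all genes). There 0 rose in either genotype, and the medians were -0.28 and -0.19. At 4 weeks no gene of these other mitochondrial and ribosomal lists passed in either direction. At most 2 of such a list had an unadjusted p below 0.05, beside 6 of the 71 mitoribosomal genes (limma).

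**Figure D5:**
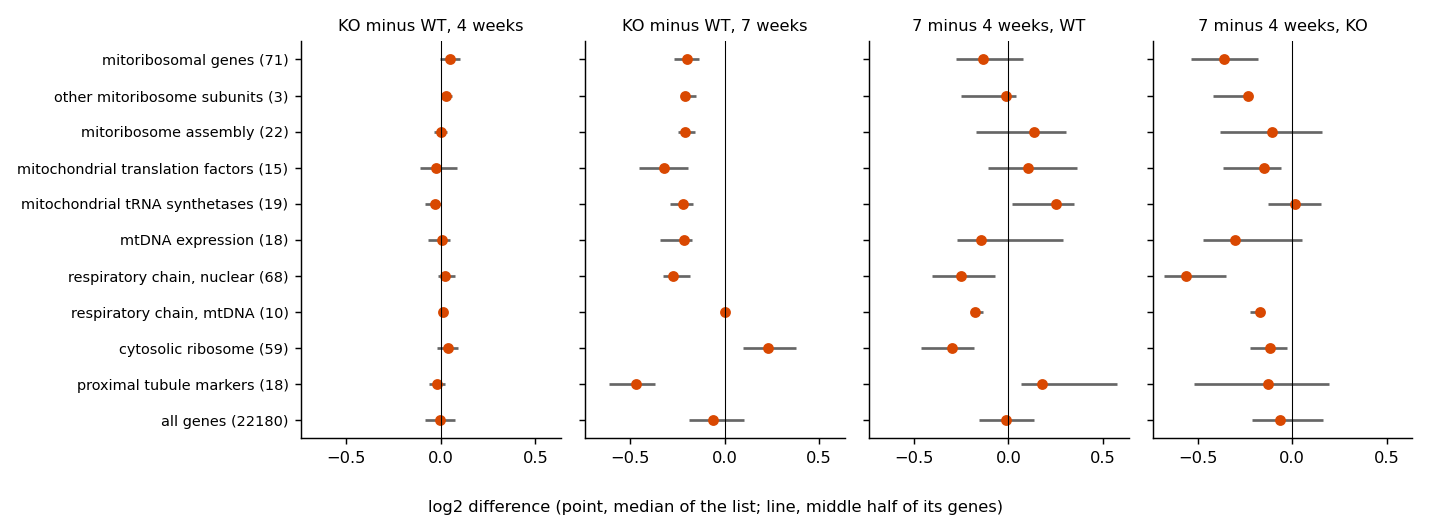
Median log2 difference of each gene list (points) with its interquartile range (lines) in 4 comparisons, with the number of genes measured in brackets. At 7 weeks the mitochondrial lists encoded in the nucleus lie between -0.20 and -0.32, the mtDNA list lies at 0.00 and the cytosolic ribosome at 0.23, while at 4 weeks the medians plotted lie between -0.03 and 0.05.

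Markers of cell types moved in the same 7-week comparison. All 18 proximal tubule markers were lower in KO, with a median of -0.47. Slc5a2, a glucose transporter, had -0.91 (adjusted p = 4.67e-05), Slc7a13 -1.39 (adjusted p = 7.25e-05), Acsm2 -0.68 (adjusted p = 4.48e-05) and Miox -0.55 (adjusted p = 8.93e-05). The mean of the 18 ran from 12.54 to 12.60 per mouse in WT and from 11.37 to 12.45 in KO. Of 17 markers of the thick ascending limb, distal tubule and collecting duct, 6 were lower and 1 higher, with means of 9.61 to 9.90 in WT and 9.27 to 9.56 in KO.

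Macrophage markers were higher in KO at 7 weeks for all 14 genes, with a median of 2.49 and means per mouse of 6.46 to 6.72 in WT and 8.18 to 9.48 in KO. Lyz2, the lysozyme of myeloid cells, had 4.07 (adjusted p = 2.25e-12), Cd68 2.64 (adjusted p = 1.15e-12), Cd14 3.56 (adjusted p = 1.71e-12) and Itgax 2.40 (adjusted p = 3.02e-13). Fibroblast markers were higher for 10 of 10, with a median of 1.58 and means of 7.47 to 7.85 in WT and 8.72 to 9.63 in KO, among them Col1a2 (1.71, adjusted p = 2.02e-13) and Fn1 (2.64, adjusted p = 3.49e-12). Lymphocyte markers were higher for 6 of 8, with means of 5.04 to 5.32 and 5.52 to 6.39. Endothelial markers were lower for 4 of 8, with means of 9.40 to 9.59 and 9.11 to 9.51, and podocyte markers gave 0 of 6 in either direction (0 at an unadjusted p below 0.05, limma), with means of 7.95 to 8.14 and 7.80 to 8.24. No marker is at 0 on this scale, so none can be called absent. The part of these cell types in the mitoribosomal differences was not tested.

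At 4 weeks, where no mitoribosomal gene passed, no marker of these lists passed either, although 6 of 14 macrophage and 6 of 10 fibroblast markers had an unadjusted p below 0.05 (limma), with medians of 0.33 and 0.39. The 18 proximal tubule markers had a median of -0.02 there. The 17 markers of the thick ascending limb, distal tubule and collecting duct had a median of -0.23, with 16 below 0 and 2 at an unadjusted p below 0.05. Between 4 and 7 weeks in WT, 8 of the 18 tubule markers rose and 1 fell, with a median of 0.18. In KO 3 rose and 8 fell, with a median of -0.13, beside the 54 of 71 mitoribosomal genes that fell.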

How the data were processed

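Kidney RNA of 32 mice was measured on Mouse Gene 2.0 ST arrays. The authors deposited gene-level values on the log2 scale, made by robust multi-array averaging (RMA) per the labels. The submitters' processing notes name Affymetrix Expression Console, with no version. Scan dates and scanner files were not used here.

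Of 41345 features, 23521 name 1 symbol, 1814 several and 16010 none, through the platform annotation, which can be old. The highest-mean feature stood for each symbol, giving 22180 genes, and no low-value filter was applied in the reported fit, so all 71 mitoribosomal genes were tested. Those 71 matched RefSeq by Entrez number. A single limma 3.58.1 fit (R 4.3.3, with the data.table package, version 1.17.8) of 4 group means, with 28 residual degrees of freedom, gave 5 comparisons, with Benjamini-Hochberg adjustment over all genes and a threshold of 0.05. No labels name a batch. In simulated 7-week data over 22180 genes with independent normal noise, changes of 0.25, 0.5 and 1 on the log2 scale were given to 67, 67 and 66 genes. They were recovered at 16.4%, 71.6% and 98.5%. Far more genes passed in the real comparison (16.7% lower and 15.6% higher), which makes its Benjamini-Hochberg cutoff less strict. The simulated shares are therefore not the power of the real comparison. Figures used Python 3.11.15 with pandas 2.3.3, numpy 2.4.6 and matplotlib 3.10.9.

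Genes named at 7 weeks were up to 12 per direction with the smallest adjusted p and 4 that did not pass. In other comparisons they were up to 6 per direction, or the 4 greatest differences where none passed, and in other lists up to 4 passing and 2 not passing. Col4a3, genes with several features, the most and least variable, the brightest and dimmest, and the Mrps18 relatives were also named by rule. Other genes were named for their role, after their values were seen: Mrps26, Mrps21, Mrps12, Mrps34, Mrps9, Mrpl11, Mrpl37, Mrpl45, Mrpl58, Gabpa and the members with an NRF1 match. The genes, lists and tests were chosen with earlier results of these data known. Alternatives were array centring, array weights, a replicate block, the mean of features, trended variances, fits of the compared groups alone, a minimum mean of 5 on the log2 scale and leaving out each mouse.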

Additional observations from a re-analysis of the deposited data

Results flagged for a closer look

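Several mitoribosomal values stood far from the rest of their group of 8, by the gap to the nearest mouse relative to the group's range. In 132 such checks 6 stood apart, and chance alone gives about 1 in 20. Mrps35 was lowest in KO 4-week mouse 4, at 7.44 beside 7.78 for the next mouse. Mrps31 was highest in WT 4-week mouse 2, at 8.79 beside 8.43. Mrpl54 was highest in WT 4-week mouse 8, at 10.11 beside 9.50. Mrps14 was lowest in WT 4-week mouse 3, at 5.91 beside 6.20, and in KO 7-week mouse 4, at 5.45 beside 5.75. Mrpl15 was lowest in KO 7-week mouse 1, at 8.52 beside 8.59.

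The genotype difference was lower at 7 than at 4 weeks, by the test of the difference itself, for the 6 named genes Mrpl16 (-0.49), Mrps35 (-0.46), Mrps31 (-0.58), Mrps5 (-0.43), Mrpl38 (-0.43) and Mrpl4 (-0.44), with adjusted p-values in limma from 0.000175 to 0.00244.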

How the results depend on the processing

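The 31 genes lower in KO at 7 weeks stayed among the 55 called with each array centred on its median, where 37.5% of all genes were lower. Fits of the compared groups alone called 51, of which 29 were shared, array weights called 44, and leaving out 1 mouse gave 20 to 34. The 2 genes higher became 0 with centring, and 1 to 2 when a mouse was left out. The 18 genes whose genotype gap was lower at 7 than at 4 weeks became 38 with centring (15.1% of all genes) and 13 to 36 when a mouse was left out. The 0 calls at 4 weeks stayed 0 in every fit run. The 19 lower and 12 higher with age in WT ranged over 13 to 23 and 9 to 13, and the 54 and 3 in KO over 48 to 54 and 2 to 4, as each mouse was left out. Leaving out the 2 arrays of lowest weight, an alternative chosen after seeing the data, gave 26 for the difference of differences, and 52 and 3 with age in KO. Among refits of single named genes outside the leave-out fits, 335 kept their call or lack of it, 6 lost a call (Mrpl52, Mrpl23 and Mrpl10), 15 gained one (Mrpl47, Mrps33, Mrps28 and Mrpl42) and none reversed. The cause of these shifts was not tested. Except for centring, no share of all genes is set beside the counts of the alternative fits.

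Whether replicate numbers pair the mice was not settled, because differently numbered mice were not compared. Same-numbered mice deviated together (correlation over 0.1) in 2 of 8 pairs at each age. Their correlations ran from -0.27 to 0.23 at 4 weeks and from -0.12 to 0.11 at 7 weeks. With the replicate block, 23 genes were lower and 1 higher at 7 weeks (Mrpl23 lost its call, adjusted p = 0.0768), 12 had a lower difference of differences, and 19 and 12 changed with age in WT and 53 and 3 in KO.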
